A study of Homo sapiens with 4 samples.

Results

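Regions of chromatin that opened with N,N-dimethyldoxorubicin (diMe-Doxo) and were listed for neither doxorubicin (Doxo) nor aclarubicin (Acla) are described here. They were found by ATAC-seq, an assay in which a transposase cuts and tags DNA where it is not covered by nucleosomes, in K562, an established cell line from a human chronic myelogenous leukaemia. The groups were K562 cells kept for 4 h in 10 µM diMe-Doxo, 10 µM Doxo or 20 µM Acla, and K562 cells without drug (control), with 1 GEO sample each. For each drug the authors deposited a list of gained regions, with values for 2 treated and 2 control libraries. A region was taken as diMe-Doxo-only when its coordinates stood in the diMe-Doxo list and in neither of the others. This held for 4977 of the 52784 regions of the diMe-Doxo list (9.43%) and of the 100205 regions in any list (4.97%).

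Anthracyclines are flat ring systems with an amino sugar, which slide between the base pairs of DNA. Doxo traps topoisomerase II on cut DNA and so leaves double-strand breaks, and it also pushes histones out of nucleosomes. DiMe-Doxo carries methyl groups on the sugar amine and Acla a longer sugar chain, and both are known for evicting histones while making few breaks. Eviction of histones bares DNA that nucleosomes had covered, which ATAC-seq reads as a gain of signal.

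The choice of these regions rests on measured values, namely the authors' fold and p-value of each drug over the control. Fold, false discovery rate (FDR), reads and peak calls of the same libraries are therefore a description, also where a test across the list was run on them. At these regions the signal with Doxo or Acla is not in the lists. A gain with those drugs that stayed under the limits seen in the authors' lists (lowest log2 fold 1.5, highest p 0.05) cannot be told apart from no gain, so no difference between the drugs was tested. Whether the paired libraries came from separate cultures is not in the labels, and their spread may be technical. The dose of Acla also differed from that of the other drugs. Gene names and sequence are not given, since coordinates are GRCh37 and no genome or annotation of that build was used here. The lists hold gained regions only, so they could not be used to check the erythroid identity of K562.

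The control libraries had very few reads at these regions, as over the whole list, and they seldom had them at the same places. Reads were recovered from the normalized values, and 1 read is the lowest control value in the lists, where a region without reads may also stand. The 4977 regions held 259563 and 219823 reads in diMe-Doxo libraries 1 and 2, and 11869 and 11300 reads in control libraries 1 and 2. After the authors' scaling 1 read counts as 0.446 and 0.460 normalized reads in the diMe-Doxo libraries and as 2.41 and 2.03 in the controls, so reads of the groups cannot be divided directly. Both control libraries stood at 1 read at 1688 regions (33.9%), against 32.5% of the list. At least 1 of them stood at 1 read at 94.8% of the class and 93.2% of the list. At 301 regions 1 control library had 10 or more reads, and at 237 of these (78.7%) the other control library stood at 1 read. Over the whole diMe-Doxo list the same was true of 2503 of 3444 regions (72.7%). The part of this unevenness in the folds was not tested. Library depth beyond the listed regions is unknown.

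The diMe-Doxo-only regions had low folds for the list, which the rule in part sets. Their median authors' log2 fold was 2.14, with a range of 1.5 to 3.81 and quartiles of 1.93 and 2.36. In the same list and against the same controls, the median was 2.38 at the 14667 regions shared with Acla only, 2.12 at the 4405 shared with Doxo only and 2.82 at the 28735 gained with all 3 drugs. No more than 55 diMe-Doxo-only regions (1.11%) reached a log2 fold of 3, against 11660 regions of all 3 drugs (40.6%). One diMe-Doxo-only region stood among the 10% with the highest fold in the list.

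**Figure D1:**
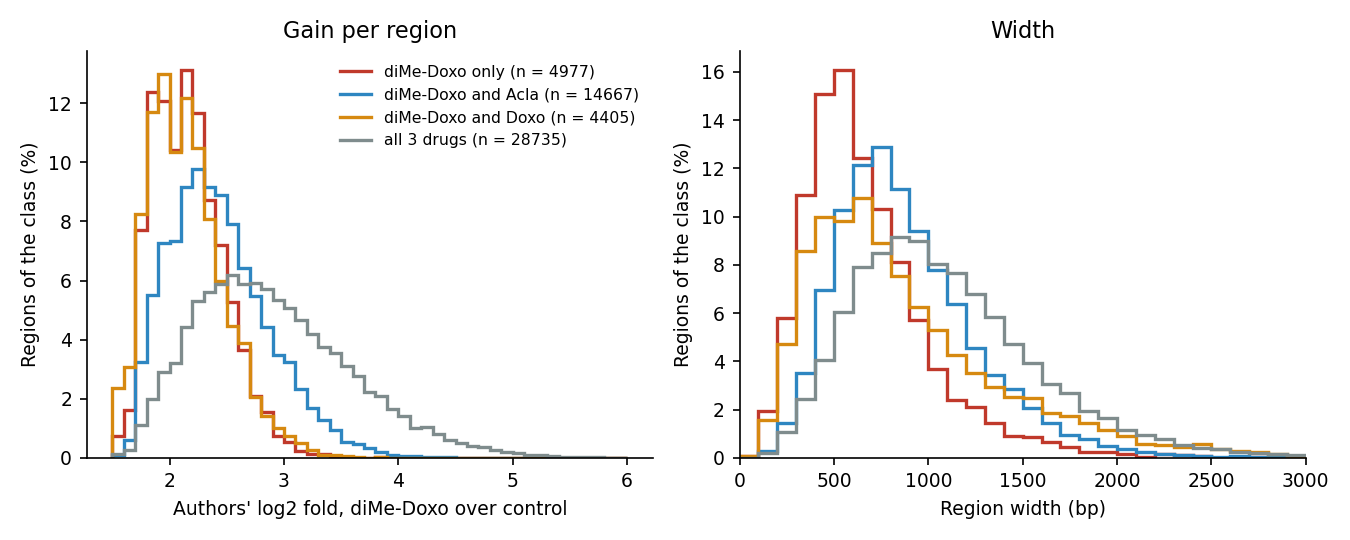
Share of regions (%) of each class of the diMe-Doxo list by authors' log2 fold of diMe-Doxo over control in steps of 0.1 (left) and by region width in steps of 100 bp (right, with the few widest regions beyond the axis). The diMe-Doxo-only regions have their fold near that of the Doxo-shared regions (medians 2.14 and 2.12) and the lowest median width of the 4 classes (601 bp).

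Many of these regions lay close to the authors' p limit. The median authors' p was 0.0279, and 1106 regions (22.2%) had a p above 0.04. In the same list, a p above 0.03 was found at 43.9% of the class and 36.2% of Doxo-shared regions. It was found at 21.6% of Acla-shared and 6.58% of all-drug regions, and at 16.8% of the list. An authors' FDR of at most 0.05 was reached at 2129 of the 4977 regions (42.8%), where the list as a whole had 77.1% of its regions at or under it. At Doxo-shared regions this share was 52.0%, at Acla-shared 70.4% and at all-drug regions 90.3%. The rule used this contrast, so nothing is read from these gaps. The members just inside the limits included chromosome 3 at 11098175-11099055 (authors' log2 fold 1.5, p 0.0386), chosen after its values were seen, with 89 and 82 reads with diMe-Doxo and 8 and 4 in the controls. Just outside, 783 Acla-shared regions (5.34%) and 221 Doxo-shared regions (5.02%) had an authors' p above 0.04 in the Acla or Doxo list that kept them out of the class. With both control libraries at 1 read, the lowest log2 fold that any listed region had was 2.13 for diMe-Doxo, 2.13 for Acla and 2.32 for Doxo. These folds are not on 1 scale, since each list has its own factors. In control libraries 1 and 2, 1 read counts as 2.41 and 2.03 in the diMe-Doxo list. It counts as 2.85 and 2.44 in the Acla list and as 1.44 and 1.39 in the Doxo list.

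In each diMe-Doxo library, normalized reads were low but above the controls. The median region held 41 and 35 reads with diMe-Doxo (highest 421 and 367), against 1 and 1 read in the controls (highest 28 and 29). In normalized reads the medians were 18.3 and 16.1 with diMe-Doxo, against 2.41 and 2.03 in the controls. Both diMe-Doxo libraries were above both control libraries, as normalized reads, at 4977 of 4977 regions, and so were they at 100% of the list, which was selected for gain. The 2 diMe-Doxo libraries differed by a median log2 SD of 0.22, and library 1 was the higher at 3405 regions (68.4%), against 74.8% over the list. The most uneven regions, chosen after their values were seen, had 11 and 45 reads (chromosome 15 at 69941389-69942131) and 46 and 11 reads (chromosome 18 at 76553434-76554274) in diMe-Doxo libraries 1 and 2, with 1 read in each control library.

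Fitted over all 52784 regions, edgeR's quasi-likelihood test of recovered reads called 4860 of the 4977 regions higher with diMe-Doxo than in the control at a Benjamini-Hochberg adjusted p of at most 0.05 (97.6%). The share over the whole list was 98.1%. All listed regions were chosen as gained from these libraries, so the count is no independent check. It fell to 2422 (48.7%) without control library 2, where the whole list had 76.8%, and to 3230 (64.9%) without diMe-Doxo library 1, where the list had 54.8%. TMM scaling assumes that most listed regions are unchanged. With it, edgeR called 0 of the class (0 at an unadjusted p under 0.05) and also 0 of the whole list. That count therefore says nothing about the class. DESeq2 with the authors' scaling called 4373 (87.9%), against 95.5% of the list.

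The regions with the lowest FDR held about 50 to 110 reads per diMe-Doxo library. Chromosome 10 at 61274806-61275749, 943 bp, led by FDR and by fold. Its reads numbered 72 and 65 with diMe-Doxo, against 1 and 1 in the controls, for an authors' log2 fold of 3.81 (FDR 0.000433). It was a called peak in both diMe-Doxo libraries and in no control library. The ratio of scaled reads was 14.1 with an exact 95% counting interval of 3.83 to 118, which covers counting error only and is wide because each control library had 1 read. Its fold ranked 3131 among the 52784 folds of the list. The nearest Acla region lay 8.81 kb away and the nearest Doxo region 13.02 kb away, with authors' log2 folds of 2.44 and 2.38 in their own lists.

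The next regions by FDR showed the same pattern of moderate reads over a nearly empty control. Chromosome 1 at 89024277-89025672 showed 76 and 62 diMe-Doxo reads against 2 and 1 control reads (authors' log2 fold 3.19, FDR 0.00153; log2 fold 3.94 without control library 1 and 2.70 without control library 2). Chromosome 3 at 681439-682437 showed 58 and 51 diMe-Doxo reads against 1 and 1 control reads (3.48, FDR 0.00164). Chromosome 13 at 114468943-114469518 showed 50 and 52 diMe-Doxo reads against 1 and 1 control reads (3.38, FDR 0.00234). At each of these the diMe-Doxo libraries lay far above both controls, with called peaks in both diMe-Doxo libraries and none in the controls. Distances to other gains differed. The nearest Doxo region was 75.2 kb from the chromosome 1 region and 86.2 kb from the chromosome 3 region, but 0.936 kb from the chromosome 13 region.

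At the remaining one of the 5 leading regions the fold moved even more with a single control library. Chromosome 3 at 10401269-10401964 showed 98 and 110 diMe-Doxo reads against 1 and 5 control reads, with an authors' log2 fold of 2.91 (FDR 0.00196). The fold was 4.29 without control library 2 and 2.22 without control library 1. An Acla region (log2 fold 1.74 in the Acla list) ended 0.171 kb before it. Apart from the leading region on chromosome 10 and those on chromosomes 3 and 13 above, the 5 highest folds included chromosome 1 at 68741942-68742773 (3.52) and chromosome 6 at 46957121-46958307 (3.36). The diMe-Doxo libraries held 75 and 38 reads at the first and 41 and 59 at the second, with 1 read in each control library at both.

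**Figure D2:**
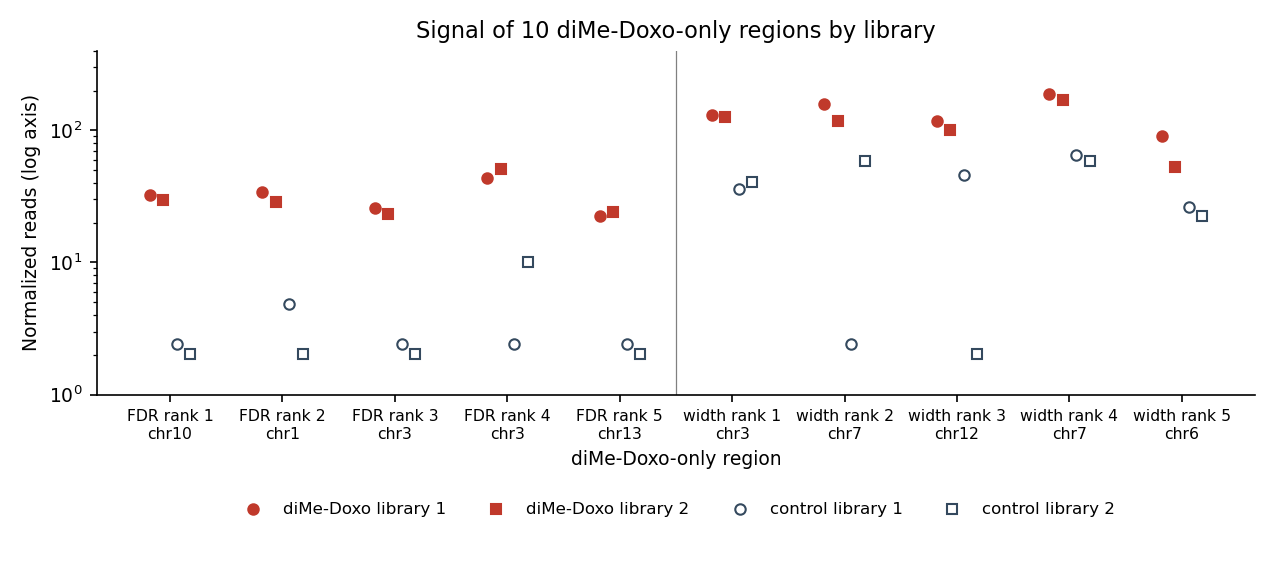
Normalized reads (log axis) in the 2 diMe-Doxo and 2 control libraries at the 5 diMe-Doxo-only regions with the lowest FDR (left of the line) and the 5 widest (right). Each point is 1 library, and diMe-Doxo lies above control at all 10, while the controls of width ranks 2 and 3 differ from each other by more than diMe-Doxo differs from the higher control.

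Of the 5 widest regions, 3 had many reads in diMe-Doxo and in both control libraries, and low folds. Chromosome 3 at 13649088-13651997, 2909 bp, held 293 and 276 diMe-Doxo reads, against 15 and 20 control reads (authors' log2 fold 1.75, FDR 0.00737). Chromosome 7 at 158236148-158238642, 2494 bp, showed 421 and 367 diMe-Doxo reads against 27 and 29 control reads (1.53, FDR 0.0147), the most control reads of the class. Both were peaks in both control libraries, and the libraries of each group lay close together. Chromosome 6 at 41308545-41311026 showed 202 and 114 diMe-Doxo reads against 11 and 11 control reads (1.55, FDR 0.0503). Chromosome 1 at 17928251-17930576 was among the 3 with the most control reads and showed 261 and 210 diMe-Doxo reads against 17 and 16 control reads (1.54, FDR 0.0242). The exact 95% counting intervals of the read ratio were 2.38 to 4.85 for the chromosome 3 region and 2.21 to 3.87 for the chromosome 7 region, both narrower than at any of the 5 regions that led by FDR.

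At the other wide regions the control libraries went against each other. Chromosome 7 at 151459155-151461992, 2837 bp, showed 354 and 256 diMe-Doxo reads against 1 and 29 control reads (authors' log2 fold 2.17, FDR 0.078). Its log2 fold was 5.84 without control library 2 and 1.23 without control library 1. Chromosome 12 at 120805384-120808094, 2710 bp, showed 263 and 218 diMe-Doxo reads against 19 and 1 control reads (2.19, FDR 0.0673). Its log2 fold was 5.74 without control library 1 and 1.25 without control library 2. With the lower value of each pair both would miss the authors' fold limit. Of the 6 wide or control-rich regions named here, edgeR called 0 at an adjusted p of at most 0.05, against 97.6% of the class. At an unadjusted p under 0.05 it was also 0. These 6 include regions whose control libraries lay close together. Chromosome 3 at 13649088-13651997, with 15 and 20 control reads, had an authors' FDR of 0.00737 but an edgeR adjusted p of 0.0948. Chromosome 10 at 61274806-61275749, with 1 read in each control library, had an edgeR adjusted p of 0.00127. The reason for this difference was not tested.

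The diMe-Doxo-only regions were narrow, and this held on every chromosome that has them. Their median width was 601 bp (interval of the median by order statistics 592 to 612), against 821 bp at Acla-shared, 749 bp at Doxo-shared and 1019 bp at all-drug regions. The median was below that of each other class on 23 of 23 chromosomes. Regions under 500 bp made up 1681 of the class (33.8%), against 12.2%, 24.9% and 7.80% of those other classes. Of the class, 3 regions (0.0603%) were 2500 bp or wider, all of them among the widest described above. Since folds differed between the classes, they were also set side by side at log2 folds under 2.5, where the medians were 609, 829, 771 and 947 bp. The rule did not use width itself, but width went with values of the same libraries, so it is not independent of the rule. Median width in the class was 413 bp without a diMe-Doxo peak and 640 bp with a peak in both libraries. For control peaks the same medians were 578 and 1048.5 bp. Treated reads were higher at wider regions across the class (Spearman's rho 0.59, n = 4977 regions from the same libraries). The parts of peak calls and read number in the narrow widths were not tested. With 1 sample per group no test over samples exists for width.

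**Figure D3:**
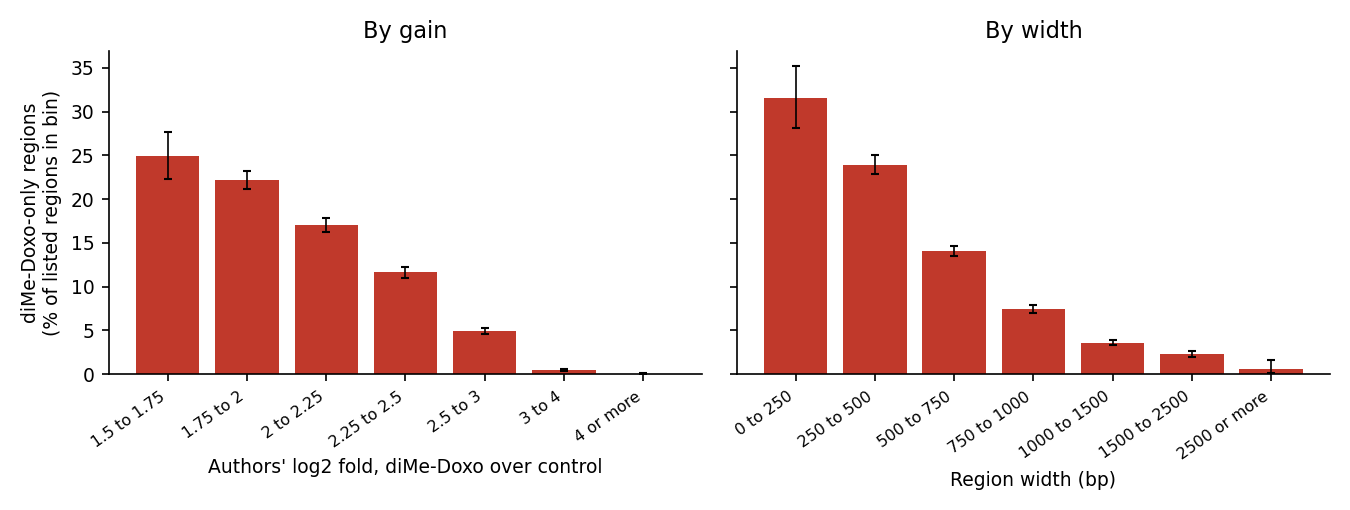
DiMe-Doxo-only regions as a share (%) of all diMe-Doxo list regions in bins of authors' log2 fold (left) and of width in bp (right), with exact 95% binomial intervals that cover counting error only. The share runs from 24.9% at folds under 1.75 to 0% at folds of 4 or more, and from 31.6% at widths under 250 bp to 0.561% at 2500 bp or more.

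Per kilobase, the diMe-Doxo reads were close to those of the list. The median was 71.2 and 60.7 reads per kb in the 2 diMe-Doxo libraries at diMe-Doxo-only regions, against 73.0 and 60.6 over the list. It was 59.1 and 49.8 at Acla-shared, 88.3 and 73.6 at Doxo-shared and 81.2 and 66.2 at all-drug regions. In the controls the medians were 2.46 and 2.36 reads per kb at diMe-Doxo-only regions and 1.80 and 1.61 over the list. The floor of 1 read weighs more on a short region, so the control values per kb are partly set by width.

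Most of the regions had no peak in untreated cells, as was true of the whole list. In neither control library was a peak called at 4342 of 4977 (87.2%, exact 95% interval 86.3 to 88.2, counting error only), against 46879 of 52784 over the list (88.8%). The share was 92.2% at Acla-shared, 79.1% at Doxo-shared and 88.8% at all-drug regions, so the class stood between those shared with a single other drug. A peak in 1 control library was present at 411 regions and in both at 224. Regions open in both controls were wider, with a median of 1049 bp, and had a median log2 fold of 1.90 with 98.5 and 79.5 reads per diMe-Doxo library. Regions without a control peak had a median width of 578 bp, a log2 fold of 2.17 and 39 and 33 reads. The share with an authors' FDR of at most 0.05 was 42.9% at regions open in both controls and 42.8% at those without a control peak.

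A peak had been called with diMe-Doxo at nearly all of them. Both diMe-Doxo libraries had a peak at 3770 regions (75.7%) and 1 of them at 1137 (22.8%), which leaves 70 regions (1.41%) without one. In the list as a whole 3217 regions (6.09%) had no diMe-Doxo peak, and 6.48%, 6.42% and 6.66% of the Acla-shared, Doxo-shared and all-drug regions. Peak calls come from the libraries the rule used, so nothing is read from this gap. The 70 regions had a median width of 413 bp and a median log2 fold of 1.97, and 48 of them had no control peak either.

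Across the class, regions with more control reads had lower folds and were wider. Over the 4977 regions Spearman's rho was -0.72 between log2 fold and summed control reads, 0.56 between width and control reads and -0.28 between fold and width. Between fold and width rho was also negative at Doxo-shared (-0.21) and Acla-shared regions (-0.08). At the 28735 regions of all 3 drugs it was 0.17, of the opposite sign. Reads of the 2 diMe-Doxo libraries had a rho of 0.78 and those of the 2 control libraries one of -0.30. All regions share the same 4 libraries, and fold contains the control reads, so these values describe the list and carry no p.

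The class was unevenly spread over the chromosomes. Of the diMe-Doxo regions of chromosome 6, 426 of 3570 (11.9%, exact 95% interval 10.9 to 13.04) were diMe-Doxo-only, and of chromosome 7, 452 of 3901 (11.6%, 10.6 to 12.6). On chromosome 19 it was 13 of 685 (1.90%, upper bound 3.22), on chromosome 21 30 of 574 (5.23%), on chromosome 22 18 of 339 (5.31%) and on chromosome 17 51 of 875 (5.83%). The X chromosome had 110 of 1775 (6.20%, 5.12 to 7.42). The intervals cover counting error only and treat neighbouring regions as independent. At log2 folds under 2.5 the share was 3.17% on chromosome 19, 19.9% on chromosome 6 and 16.6% over the list. At an FDR of at most 0.05 it was 0.833%, 7.06% and 5.23%, so the order stayed. The numbers of Doxo regions were 2501 on chromosome 19 and 4139 on chromosome 6, against 685 and 3570 for diMe-Doxo. The part of the many Doxo regions in the low share of chromosome 19 was not tested.

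**Figure D4:**
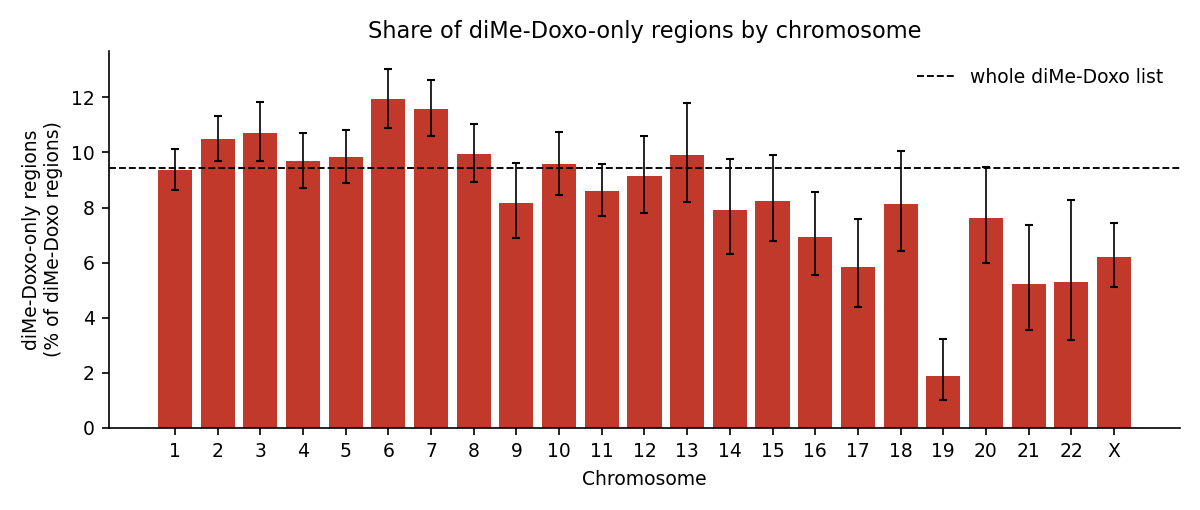
DiMe-Doxo-only regions as a share (%) of the diMe-Doxo regions of each chromosome, with exact 95% binomial intervals (counting error only) and a dashed line at the share of the whole list (9.43%). Chromosomes 6 and 7 are highest (11.9% and 11.6%) and chromosome 19 lowest (1.90%). Chromosome Y, with 2 diMe-Doxo regions, is left out.

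In windows of 1 Mb, diMe-Doxo-only regions occurred in 1698 of the 2786 windows with a diMe-Doxo region, 628 windows had 1 of them, 284 had 5 or more and 66 had 10 or more, these last with 856 regions in all. The median distance to another region of the class was 67.0 kb. The most were on chromosome 7 at 157-158 Mb (26 of 136 diMe-Doxo regions), chromosome 8 at 143-144 Mb (23 of 162) and chromosome 6 at 167-168 Mb (20 of 54). Control peaks were frequent there, as 13 of 26, 13 of 23 and 12 of 20 regions had none. The largest shares of all regions of any list were on chromosome 7 at 8-9 Mb (8 of 27, 29.6%), the X chromosome at 68-69 Mb (11 of 38, 28.9%) and chromosome 7 at 93-94 Mb (6 of 21, 28.6%), where 8, 10 and 6 had no control peak. The 3 windows named by number are the extremes of 2848 windows with any region. The 3 named by share are the extremes of 1916 windows with at least 20 regions.

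The longest unbroken row of diMe-Doxo-only regions lay on chromosome 13. A row of 7 consecutive regions of the diMe-Doxo list, between 112017597 and 112091603 (74.0 kb), belonged to the class, and was picked after its values were seen. The first, at 112017597-112017929, showed 26 and 27 diMe-Doxo reads against 1 and 1 control reads (authors' log2 fold 2.44). The third, at 112048016-112049131, showed 89 and 86 diMe-Doxo reads against 7 and 1 control reads (2.07). The fifth, at 112077750-112078342, showed 39 and 27 diMe-Doxo reads against 1 and 1 control reads (2.75). Folds in the row ran from 2.05 to 2.75 and widths from 262 to 1115 bp, beside a median of 2.14 and 601 bp over the class. The 1 Mb from 112 Mb of chromosome 13 held 17 regions of the class among 55 diMe-Doxo, 33 Doxo and 33 Acla regions. Over the genome 3616 of the unbroken rows were a single region long, 513 had 2 and 79 had 3.

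Other windows rich in diMe-Doxo regions held none of the class. Among 297 windows with at least 40 diMe-Doxo regions, 13 had 0 diMe-Doxo-only regions. They included chromosome 12 at 126-127 Mb, with 58 diMe-Doxo, 104 Acla and 35 Doxo regions, chromosome 10 at 128-129 Mb (53, 79 and 27) and chromosome 16 at 34-35 Mb (54, 77 and 56), all picked after their values were seen. In each of these the Acla regions outnumbered those of diMe-Doxo. In the 3 windows with the most diMe-Doxo-only regions Acla regions were fewer than those of diMe-Doxo (130 and 162 on chromosome 8, 32 and 54 on chromosome 6). A region in the Acla list cannot be in the class, so the rule in part sets this contrast and nothing is read from it.

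Seen by their surroundings, the regions stood between the Acla-shared and the Doxo-shared ones, as did those of all 3 drugs. The median distance to the nearest Doxo region that was not a diMe-Doxo region was 50.9 kb, against 81.6 kb from Acla-shared, 9.83 kb from Doxo-shared and 40.9 kb from all-drug regions. The median distance to the nearest Acla region that was not a diMe-Doxo region was 62.8 kb, against 26.5 kb from Acla-shared, 164 kb from Doxo-shared and 49.6 kb from all-drug regions. At log2 folds under 2.5 the distances were 49.1, 79.7, 9.11 and 28.0 kb for Doxo and 64.0, 25.8, 164 and 52.1 kb for Acla, given for the same 4 classes in turn. A median of 9 regions gained with Doxo alone and 4 gained with Acla alone lay within 500 kb of a diMe-Doxo-only region. Around all-drug regions these were 8 and 4, nearly the same, while they were 3 and 9 around Acla-shared and 20 and 1 around Doxo-shared regions. The classes are set by the Doxo and Acla lists, so distances to regions of those lists are not independent of the rule. No test was made, since neighbouring regions are also not independent of each other.

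**Figure D5:**
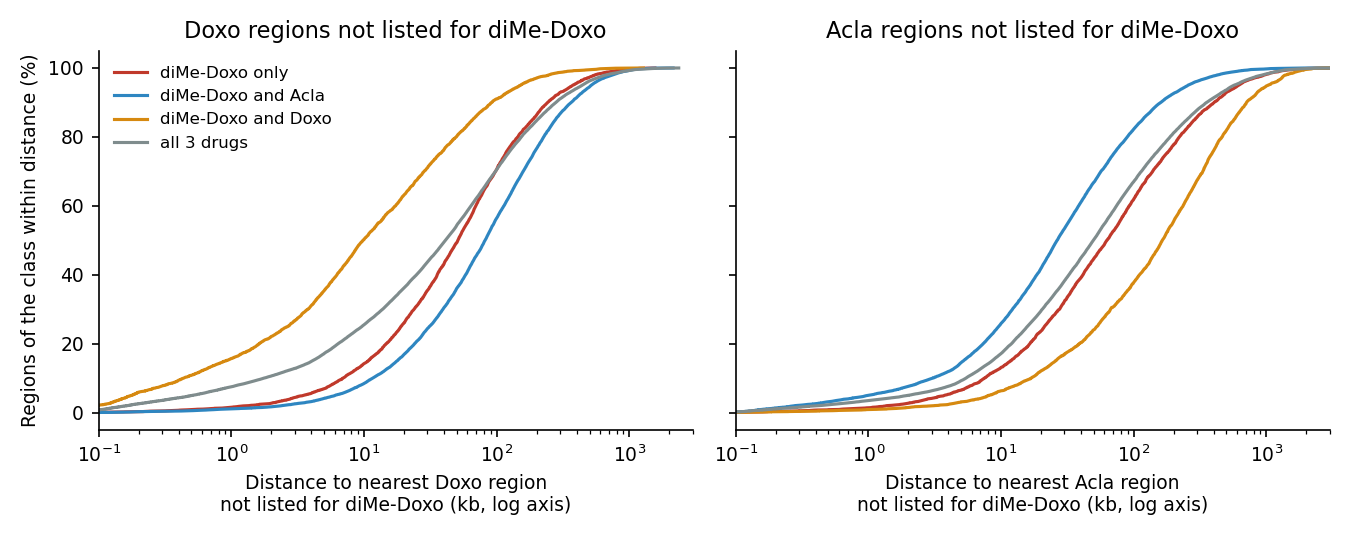
Share of the regions of each class (%) that lie within a given distance (kb, log axis) of the nearest Doxo region (left) or Acla region (right) not listed for diMe-Doxo. The curve of the diMe-Doxo-only regions (medians 50.9 kb and 62.8 kb) runs between those of the Acla-shared and Doxo-shared regions in both panels. Classes and distances rest on the same lists, so they are not independent.

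The class was about as close to other diMe-Doxo regions as those regions were to each other. Another diMe-Doxo region was a median of 8.01 kb away, beside 7.92 kb over the list, and 30 others lay within 500 kb at the median region. Of the nearest diMe-Doxo regions 16.3% were themselves diMe-Doxo-only, which make up 9.43% of the list, and 48.2% were gained with all 3 drugs, which make up 54.4%. Every other class also had its own kind as nearest more often than its list share. The values were 24.6% against 8.35% for Doxo-shared, 41.4% against 27.8% for Acla-shared and 59.3% against 54.4% for all-drug regions. A Doxo or Acla region lay within 1 kb of 701 regions (14.1%), against 22.2% over the list. Within 10 kb of the nearest other region of the class lay 735 (14.8%).

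Towards chromosome ends the class resembled the list. Within 5 Mb of the outermost listed region of a chromosome lay 855 of the 4977 (17.2%, exact 95% interval 16.1 to 18.3), beside 16.5% of the list. Of Acla-shared regions 11.7% lay there, and of Doxo-shared regions 970 of 4405. Regions of Acla alone had 5.71% and regions of Doxo alone 22.1%. The outermost listed region stands in for the chromosome end, which the lists do not give.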

How the data were processed

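The submitters' processing notes name GRCh37 and DiffBind, while the aligner, the peak caller, normalization and tool versions were not given in the sources used here. No list has a header, so what each column holds was read off its values. The authors deposited mean signal and fold on a log2 scale, and a p-value and an FDR per region. They also gave the number of treated and of control libraries with a peak, and a signal per library, a read count times 1 factor. The deposited fold equals the difference of the log2 group means within 0.01. Reads were recovered by dividing the deposited signal by its step, and 100% came out whole within 0.1 reads. Control reads were identical in the lists at all 33140 regions shared with Doxo and 43402 shared with Acla, so the lists share their controls.

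Regions were matched by identical coordinates, and widths are end minus start. The lists do not say whether starts count from 0 or 1. Shares have exact Clopper-Pearson 95% intervals. The edgeR quasi-likelihood test used recovered reads with the authors' factors. It was tested on simulated data over the 52784 regions of the diMe-Doxo list. There it found 52% of 100 regions raised 4-fold and 2% of 100 raised 2-fold. All other simulated regions were unchanged and 1 fixed spread was used, whereas 98.1% of the real list was called. These shares therefore do not carry over to the calls in the real list. The signal is not a raw count, so edgeR serves as a description beside the authors' p. The design's sequence, motif and gene lists were not run, for want of a GRCh37 genome here. Named regions are the 5 with the lowest FDR, the 5 with the highest fold, the 5 widest and the 3 with the most control reads, and, of 1 Mb windows, 3 by number and 3 by share of the class. The regions and lists were chosen with earlier results of these data known. Tests used edgeR 4.0.16 and DESeq2 1.42.0 in R 4.3.3, intervals scipy 1.17.1, and tables pandas 2.3.3 under Python 3.11.15.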

Additional observations from a re-analysis of the deposited data

How the results depend on the processing

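The number of regions stayed at 4977 when sharing 1 bp was enough to match. No region of the class overlapped a listed Doxo or Acla region, so this setting is no check of the matching. It was 4276 when a Doxo or Acla region within 1 kb counted as shared, 4073 with all lists at a log2 fold of at least 2 and 4055 with all lists at an FDR of at most 0.05, of which 2129 were already in the class. With the diMe-Doxo list alone held to that FDR it was 2129. The median log2 fold of 2.14 became 1.86 and 1.30 with pseudocounts of 1 and 5, and 1.78 at the 257 regions with more than 1 read in both control libraries. It lay between 2.01 and 2.52 when 1 library was left out. TMM scaling, which assumes that most listed regions are unchanged, turned it to -0.67, beside a median of -0.30 over the list. The share without a control peak was 85.8% at log2 folds under 2.5, and the median width was 624 bp at an FDR of at most 0.05. The edgeR count of 4860 was 0 with TMM and 2422 to 4045 when 1 library was left out. All 13 named regions stayed positive under the 78 other values, but TMM gave -1.11 and -0.89 for the 2 widest, -0.46 for chromosome 12 at 120805384-120808094, -1.32 for chromosome 7 at 158236148-158238642, -1.29 for chromosome 6 at 41308545-41311026 and -1.29 for chromosome 1 at 17928251-17930576. Chromosome shares and distances were added after seeing the data. No paired analysis was possible because the columns carry no replicate numbers. GC content was not run, for want of a genome of the build. Few control reads limit these results, since 94.8% of the regions had at least 1 control library at 1 read. The part of sequencing depth in this was not tested.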
